A study of Mus musculus with 12 samples.

Results

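The 10 genes described here encode the enzymes that build the cores of mucin-type O-glycans, the chains that extend from them and several of the caps that close them. They were chosen by name from the 55376 genes of the count table as C1galt1, C1galt1c1, B3gnt6, Gcnt1, Gcnt3, Gcnt4, B3gnt3, B3gnt7, A4gnt and B4galnt2, and all 10 passed the filter on low values, for which 4 or more libraries had to reach 1 CPM (counts-per-million, scaled to library size). Expression was measured by RNA-Seq of total RNA from the proximal colon in 12 mice aged 12 weeks, with 1 library per animal. The 6 control mice (EPR fl/fl) carried loxP sites around the promoter and exon 1 of EPR, a long noncoding RNA of epithelia, and are labelled wild type for the gene. The 6 knockout mice (EPR cKO) carried the same floxed allele and in addition the CDX2P-NLS Cre transgene, in which promoter and enhancer sequence of the human CDX2 gene directs Cre recombinase to the intestinal epithelium. No group with Cre alone is among these samples. Whole frozen tissue was used, so that epithelium, muscle, vessels, nerves and attached fat were read together, and the sexes of the mice are not given.

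Mucin-type O-glycosylation starts with a single N-acetylgalactosamine (GalNAc) placed on a serine or threonine of the mucin. Galactose added by the core 1 synthase makes core 1, N-acetylglucosamine (GlcNAc) added by the core 3 synthase makes core 3, and branching enzymes turn these into core 2 and core 4. Core 3 is typical of colonic mucins, and mice that lack either core structure in the gut are known to have a thinner or weaker mucus barrier and to be prone to colitis.

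Library totals ranged from 13093904 to 33211041 counts. EPR, listed as Smim31, was read at 39.4 ± 14.5 CPM in the controls and 0.132 ± 0.151 CPM in the knockouts (SD, n = 6 each) and was lower in every knockout than in any control, as the labels have it. Epithelial marker genes were present in all libraries, with a summed level of 9701 to 14240 CPM in EPR fl/fl and 11561 to 17759 CPM in EPR cKO. One knockout library, EPR cKO 1, stood apart in its content of smooth muscle: its 10 smooth muscle genes summed to 9684 CPM, against 1083 to 2817 CPM in the other 5 EPR cKO libraries and 3223 to 5628 CPM in EPR fl/fl. Results that depend on EPR cKO 1 are therefore also given without it.

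The core 3 synthase and a terminal capping enzyme were lower in EPR cKO in every fit. The core 1 synthase and its chaperone were lower by less, and only the chaperone passed the threshold, in a call that was not stable. The differences of the branching enzymes were within their error. Of the 10 genes, 3 fell in EPR cKO at an adjusted p under 0.05 in edgeR's quasi-likelihood test with Benjamini-Hochberg adjustment: B3gnt6, A4gnt and C1galt1c1. Over all 15952 tested genes 1.57% fell by this rule. Without EPR cKO 1, 5 of the 10 fell, as did 2273 of 15836 tested genes (14.4%). None of the 10 rose in either fit, where 0.884% of all tested genes rose with all libraries and 7.44% without EPR cKO 1. At these shares 0 of 10 does not set the enzymes apart. With all libraries 5 of the 10 enzymes had an unadjusted p under 0.05, as did 18.3% of all tested genes. The median log2 fold change of the 10 was -0.26, and that of all tested genes was 0.02. All 6 EPR cKO libraries lay below all 6 EPR fl/fl libraries for 4 of the 10 (B3gnt6, A4gnt, C1galt1c1 and C1galt1), and for 1.47% of all tested genes. For none of the 10 did all EPR cKO libraries lie above, against 1.00% of all tested genes. At the stricter limits used in the study, an adjusted p under 0.001 with a minimum size of the log2 fold change, 1 of the 10 passed, which was B3gnt6, and 0.169% of all tested genes did.

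**Figure D1:**
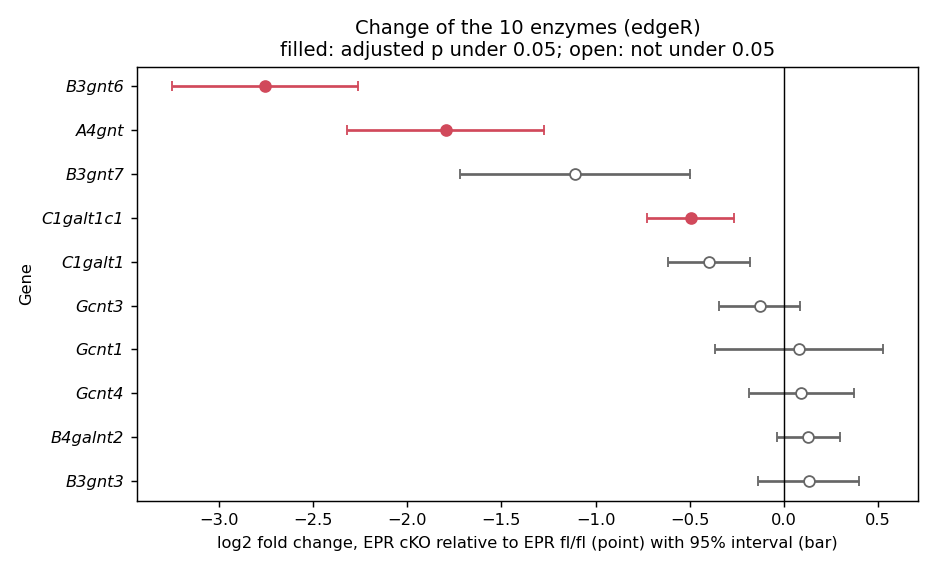
Log2 fold change of each enzyme in EPR cKO relative to EPR fl/fl (horizontal axis) with its 95% interval, from edgeR's quasi-likelihood fit over 12 libraries. B3gnt6 at -2.75 and A4gnt at -1.80 lie far to the left, C1galt1c1 is filled too, at -0.50, and the intervals of Gcnt1, Gcnt3, Gcnt4, B3gnt3 and B4galnt2 include 0.

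B3gnt6 encodes the core 3 synthase, which adds GlcNAc to the first GalNAc of the chain. Its 2 exons, of 2371 bases together, lie between positions 98192417 and 98199481 of chromosome 7 in the mm10 build, on the minus strand. Its level was 25.0, 28.6, 38.8, 27.9, 27.2 and 17.8 CPM in EPR fl/fl 1 to 6. In EPR cKO 1 to 6 it was 2.80, 4.14, 3.15, 4.55, 6.50 and 3.13 CPM. The groups did not come near each other, since the highest knockout library was well below the lowest control, EPR fl/fl 6. B3gnt6 fell by 2.75 on the log2 scale (SE 0.23, 95% interval -3.25 to -2.26, adjusted p = 4.33e-05), to 14.7% of the control mean. Only 9 of the 15952 tested genes had a lower log2 fold change. The reads behind this were 332 to 1226 per control library and 51 to 209 per knockout library. In bulk tissue, fewer cells that express a gene and less of its RNA in each cell cannot be told apart. The 13 tested genes within 500 kb of B3gnt6 included 0 at an adjusted p under 0.05, with log2 fold changes from -0.27 to 0.72. Over all tested genes 1.57% fell and 0.884% rose at that threshold, so that 0 is the usual count for so few genes.

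C1galt1, on the plus strand of chromosome 6 (7844842 to 7875687, 4 exons), encodes the core 1 synthase. It was read at 362, 345, 393, 369, 312 and 306 CPM in EPR fl/fl 1 to 6. In EPR cKO 1 to 6 it was read at 196, 261, 277, 293, 280 and 274 CPM. All knockout libraries were below all controls, with EPR cKO 4 close to EPR fl/fl 6 and EPR cKO 1 clearly lowest. The mean went from 348 ± 33.7 to 264 ± 34.5 CPM, a log2 difference of -0.40 (SE 0.10, 95% interval -0.62 to -0.18), and the adjusted p of 0.0567 in edgeR's quasi-likelihood test missed the threshold. Without EPR cKO 1 the log2 difference was -0.34 with an adjusted p of 0.00779, and without EPR fl/fl 6 it was -0.43 with an adjusted p of 0.0495, so that C1galt1 passed in those fits and in none of the other 10 fits that left out 1 library.

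C1galt1c1, also known as Cosmc, encodes the chaperone without which the core 1 synthase does not fold, and lies on the minus strand of chromosome X (38630785 to 38635087, 2 exons). Its level was 59.3, 65.0, 53.8, 65.1, 62.3 and 55.6 CPM in EPR fl/fl 1 to 6. In EPR cKO 1 to 6 it was 29.4, 42.3, 43.2, 46.0, 47.7 and 47.2 CPM. The groups did not overlap, and EPR cKO 1 was again lowest. C1galt1c1 fell by 0.50 on the log2 scale (SE 0.11, 95% interval -0.73 to -0.26, adjusted p = 0.0287 by edgeR's quasi-likelihood test), to 70.9% of the control mean. The call was not stable: it was lost when EPR fl/fl 1, 2, 4 or 5 or EPR cKO 2, 3, 4 or 6 was left out (adjusted p from 0.0515 to 0.101 by edgeR's quasi-likelihood test), and held without EPR cKO 1 (log2 difference -0.43, adjusted p = 0.00250).

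The core 3 to core 1 synthase ratio was formed within each library from counts per exonic base, and therefore does not depend on library scaling. In EPR fl/fl 1 to 6 the log2 ratio of B3gnt6 to C1galt1 was -2.49, -2.23, -1.98, -2.36, -2.16 and -2.74. In EPR cKO 1 to 6 it was -4.76, -4.61, -5.09, -4.64, -4.07 and -5.08. Every knockout library lay below every control, and EPR cKO 1 was not among the extremes. The mean log2 ratio went from -2.33 ± 0.27 to -4.71 ± 0.38, a difference of -2.38 (95% interval -2.78 to -1.96 by inverting the exact permutation test). The two-sided exact permutation p was 0.00216, the smallest that 6 libraries against 6 allow, and 0.00325 after adjustment over the 9 ratios tested. On the linear scale the ratio went from 0.202 ± 0.0365 to 0.0395 ± 0.0111, so that each B3gnt6 read per base was matched by 3.94 to 6.68 C1galt1 reads per base in controls and by 16.7 to 34.0 in knockouts.

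**Figure D2:**
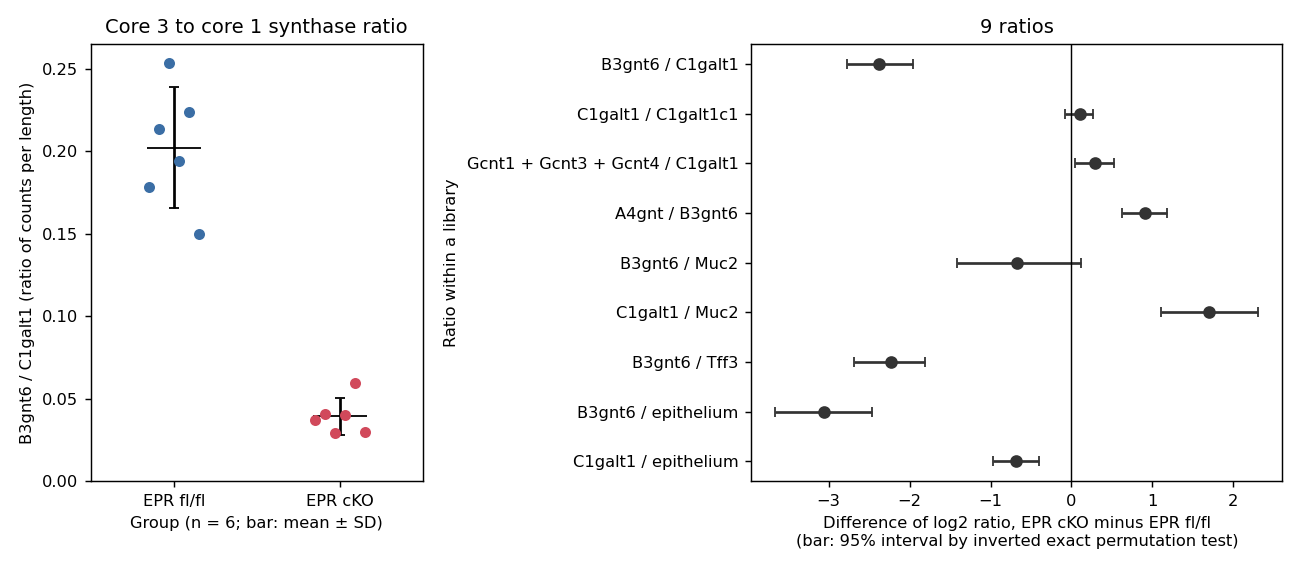
Left, the ratio of B3gnt6 to C1galt1 counts per exonic base in each library by group, with mean ± SD (n = 6). The controls sit at 0.150 to 0.254 and the knockouts at 0.0294 to 0.0597, without overlap. Right, the difference of 9 log2 ratios between EPR cKO and EPR fl/fl with 95% intervals by inverted exact permutation test, in which the ratios of C1galt1 to C1galt1c1 and of B3gnt6 to Muc2 have intervals that include 0.

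The core 1 synthase was also set against its chaperone. The log2 ratio of C1galt1 to C1galt1c1 went from 0.46 ± 0.19 in controls to 0.56 ± 0.08 in knockouts, a difference of 0.11 (95% interval -0.08 to 0.27, exact permutation p = 0.236, adjusted p = 0.236). Of the 12 tests that left out 1 library, 1 had an adjusted p under 0.05 by the same exact permutation test. That test left out EPR fl/fl 3, the control with the highest ratio (0.80), and gave a difference of 0.17 (adjusted p = 0.0223). In the other tests the adjusted p ran up to 0.446.

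Gcnt3, on the minus strand of chromosome 9 (70031496 to 70038088), encodes the mucin-type branching enzyme that forms both core 2 and core 4. Its lowest, median and highest levels were 635, 756 and 852 CPM in EPR fl/fl. In EPR cKO they were 569, 665 and 844 CPM. The ranges overlapped over most of their length, and the log2 difference was -0.13 (95% interval -0.35 to 0.09, adjusted p = 0.505 by edgeR's quasi-likelihood test). Gcnt1, on the minus strand of chromosome 19 (17326141 to 17372844), and Gcnt4, on the plus strand of chromosome 13 (96924689 to 96950906), encode the core 2 branching enzymes. Gcnt1 spread widely in both groups, from 35.3 to 81.6 CPM (median 53.8) in EPR fl/fl and from 38.6 to 75.3 CPM (median 63.0) in EPR cKO. Its log2 difference was 0.08 (95% interval -0.37 to 0.52, adjusted p = 0.853 by edgeR). Gcnt4 ran from 15.5 to 23.3 CPM (median 17.6) in EPR fl/fl and from 15.3 to 23.0 CPM (median 20.4) in EPR cKO. The Gcnt4 groups covered the same range, with a log2 difference of 0.09 (95% interval -0.18 to 0.37, adjusted p = 0.713 by edgeR). None of these 3 intervals reached down to the log2 difference of C1galt1, -0.40. That difference has its own 95% interval, -0.62 to -0.18, which overlapped all 3, that of Gcnt4 only at its edge. The intervals therefore do not show that the branching enzymes changed less than C1galt1. An antisense gene, Gm48597, covers 10.5% of the exonic bases of Gcnt4 and held at most 1 read in any library. The signs of Gcnt1 and Gcnt4 were not stable, since both turned to -0.12 and -0.03 when the balance of epithelial to smooth muscle genes entered the fit.

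Set against the core 1 synthase of the same library, the summed branching enzymes were higher in EPR cKO. The sum was mostly Gcnt3, at a control mean of 175 CPM per kilobase of exon, against 11.6 for Gcnt1 and 3.67 for Gcnt4. Gcnt3 itself did not rise (log2 difference -0.13), and C1galt1 was lower (-0.40). The log2 ratio of summed Gcnt1, Gcnt3 and Gcnt4 to C1galt1 went from 1.73 ± 0.08 in controls to 2.02 ± 0.26 in knockouts. The difference was 0.29 (95% interval 0.05 to 0.53, exact permutation p = 0.0238, adjusted p = 0.0306). The groups overlapped, with 1.63 to 1.86 in EPR fl/fl and 1.74 to 2.39 in EPR cKO. The adjusted p rose above 0.05 when EPR fl/fl 4 or 6 or EPR cKO 1, 2, 5 or 6 was left out, reaching 0.0612 by exact permutation, and the difference was 0.22 without EPR cKO 1.

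B3gnt3 and B3gnt7 belong to the extension step. B3gnt3, on the minus strand of chromosome 8 (71690756 to 71701789), encodes the enzyme that adds GlcNAc to core 1 and so starts an extended chain. Its lowest, median and highest levels were 158, 173 and 221 CPM in EPR fl/fl and 151, 201 and 258 CPM in EPR cKO. The groups overlapped, and the log2 difference of 0.13 (95% interval -0.14 to 0.40, adjusted p = 0.589 by edgeR) became -0.05 with the epithelium and smooth muscle balance in the fit.

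B3gnt7 encodes a GlcNAc transferase of N-acetyllactosamine and keratan sulfate chains and lies on the plus strand of chromosome 1 (86303234 to 86307305, 2 exons). Its level was 10.2, 8.46, 15.6, 9.14, 10.9 and 16.6 CPM in EPR fl/fl 1 to 6. In EPR cKO 1 to 6 it was 2.36, 6.72, 6.55, 3.79, 4.76 and 8.66 CPM. In 5 of 6 knockout libraries it was below every control, and EPR cKO 6 was just above EPR fl/fl 2. The mean went from 11.8 ± 3.44 to 5.47 ± 2.27 CPM, a log2 difference of -1.11 (SE 0.28, 95% interval -1.72 to -0.50) with an adjusted p of 0.0611 by edgeR's quasi-likelihood test, which missed the threshold. Leaving out EPR cKO 1 (log2 difference -0.98, adjusted p = 0.0131) or EPR cKO 6 (-1.28, adjusted p = 0.0484) brought it under 0.05 in the same test. With 43 to 163 reads per knockout library, B3gnt7 and B3gnt6 were the most thinly covered of the enzymes. The antisense gene Gm28626 covers 12.4% of its exonic bases, but held at most 2 reads in any library.

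The capping enzymes A4gnt and B4galnt2 behaved differently. A4gnt encodes the transferase that ends a chain with an alpha-linked GlcNAc, a cap best known from the gland mucin of the stomach, and B4galnt2 encodes the transferase that places the terminal GalNAc of the Sda antigen, which is abundant in the colon. A4gnt lies on the plus strand of chromosome 9 (99612502 to 99622367, 3 exons). Its level was 42.9, 47.2, 55.2, 59.1, 41.1 and 35.0 CPM in EPR fl/fl 1 to 6. In EPR cKO 1 to 6 it was 8.95, 11.2, 11.8, 13.6, 25.4 and 9.35 CPM. All knockouts lay below all controls, and EPR cKO 5 stood above the other 5 knockouts. A4gnt fell by 1.80 on the log2 scale (SE 0.24, 95% interval -2.32 to -1.27, adjusted p = 0.00145 by edgeR's quasi-likelihood test), to 28.7% of the control mean. Without EPR cKO 5 the log2 difference was -2.09. The defining genes of gastric mucous cells (Muc6, Muc5ac, Tff1, Tff2, Gkn1 and Gkn2) all had means under 1 CPM, and the 6 together summed to 0.365 to 1.99 CPM in EPR fl/fl and to at most 0.329 CPM in EPR cKO. The 8 tested genes within 500 kb of A4gnt included 0 at an adjusted p under 0.05, where 1.57% of all tested genes fell and 0.884% rose. Their log2 fold changes ran from -0.98 to 0.01, with a median of -0.24.

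The 250 bases before the annotated start of A4gnt are shown because A4gnt fell the most among the 7 of 10 enzymes that have an entry in the RefSeq promoter table (GRCm38.p6), which B3gnt6, C1galt1c1 and Gcnt3 do not. Both strands were searched for TATAAA as in a TATA box, CCAAT as bound by NF-Y, GGGCGG as in a GC box, CACGTG as in an E-box and TTTATNG as in sites of the CDX factors, and capitals mark the matches.
A4gnt, chr9:99612252-99612501, plus strand: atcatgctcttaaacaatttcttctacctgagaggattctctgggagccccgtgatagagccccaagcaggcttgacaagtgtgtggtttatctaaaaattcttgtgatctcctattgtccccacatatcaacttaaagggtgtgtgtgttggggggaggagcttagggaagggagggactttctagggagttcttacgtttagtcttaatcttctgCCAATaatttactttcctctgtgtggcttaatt
The window held a single match, the CCAAT starting 33 bases before the start site, and 33.8% of the 32851 mouse promoter windows of the same length held that motif. TATAAA was found in 12.4% of all windows, GGGCGG in 32.7%, CACGTG in 6.02% and TTTATNG in 9.81%. The A4gnt window had a GC content of 43.6%, against a median of 52.4% over all windows. The matching window of B3gnt7 had a GC content of 61.6% and held 2 GC boxes and 1 CACGTG.

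B4galnt2, on the minus strand of chromosome 11 (95865943 to 95914891, 11 exons), was the steadiest of the enzymes. Its lowest, median and highest levels were 661, 708 and 730 CPM in EPR fl/fl, a coefficient of variation of 3.99%. In EPR cKO they were 698, 752 and 909 CPM, with 3 of 6 libraries above every control. The log2 difference was 0.13 (95% interval -0.04 to 0.30, adjusted p = 0.392 by edgeR). This interval did not overlap that of C1galt1 (-0.62 to -0.18). The antisense gene Gm11534 covers 15.3% of its exonic bases and held 13 to 134 reads per library, against 9436 to 29226 for B4galnt2. Within the knockout libraries A4gnt was less reduced than B3gnt6: the log2 ratio of A4gnt to B3gnt6 rose from 0.56 ± 0.22 to 1.47 ± 0.21, a difference of 0.91 (95% interval 0.63 to 1.18, exact permutation p = 0.00216, adjusted p = 0.00325), without overlap of the groups.

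**Figure D3:**
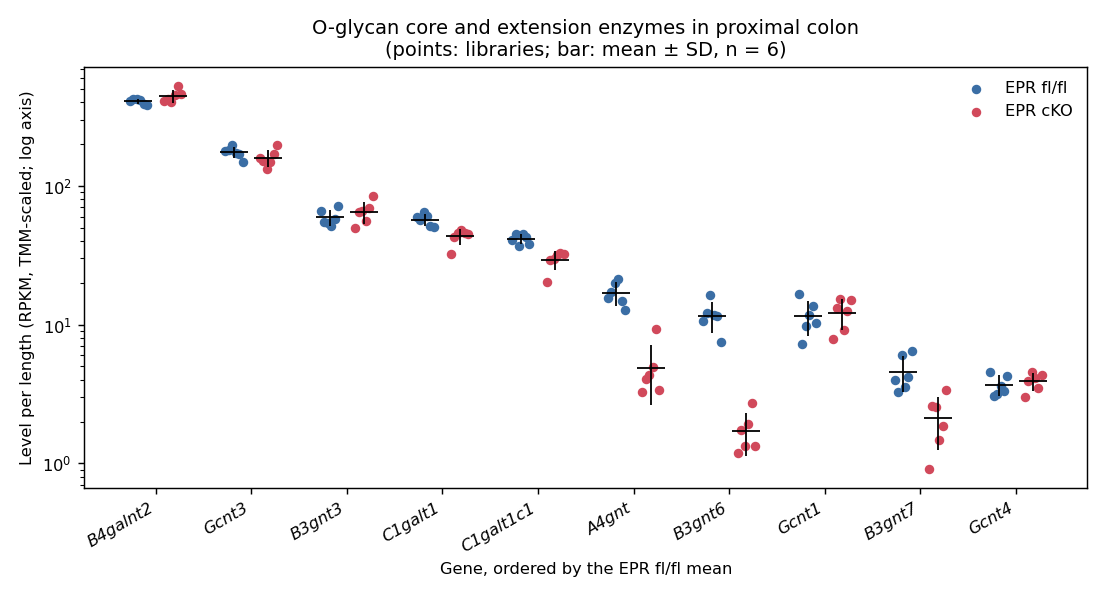
Level per exonic length (RPKM from TMM-scaled counts, log axis) of each enzyme in every library, ordered by the EPR fl/fl mean, with mean ± SD (n = 6 per group). B4galnt2 is highest in both groups at 407 and 445 RPKM, and B3gnt6 drops from 11.6 to 1.71 RPKM, below all other enzymes in the knockout mean.

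Compared per length, the order of levels changed at its lower end. In EPR fl/fl the mean RPKM (CPM divided by the exon length in kilobases) was 407 for B4galnt2, 175 for Gcnt3, 59.5 for B3gnt3, 57.1 for C1galt1, 41.5 for C1galt1c1, 17.0 for A4gnt, 11.6 for B3gnt6, 11.6 for Gcnt1, 4.58 for B3gnt7 and 3.67 for Gcnt4. Neighbours with overlapping ranges were B3gnt3 and C1galt1, A4gnt and B3gnt6, B3gnt6 and Gcnt1, and B3gnt7 and Gcnt4. A4gnt was nevertheless above B3gnt6 within each of the 6 libraries. In EPR cKO the first 5 places were held by the same genes in the same order, at 445, 160, 65.2, 43.3 and 29.4 RPKM. Below them came Gcnt1 at 12.2, A4gnt at 4.86, Gcnt4 at 3.90, B3gnt7 at 2.12 and B3gnt6 at 1.71 RPKM. B3gnt6 and B3gnt7, last in this order, overlapped, with B3gnt7 higher in 3 of 6 knockout libraries.

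The enzymes were then set against other products of the same epithelium. Goblet cell genes were lower in EPR cKO, with 12 of 12 markers lower by sign. At an adjusted p under 0.05 in edgeR 7 of 12 fell, beside 1.57% of all tested genes. The study had already reported Muc2, Fcgbp, Clca1, Agr2 and Ern2 as reduced in these data, so the counts are not independent of that report. The summed level was 6322 to 8724 CPM in EPR cKO against 13593 to 28755 CPM in EPR fl/fl. Muc2, the main secreted mucin of the colon and carrier of these glycans, went from 8006 ± 3579 to 1755 ± 350 CPM. Relative to Muc2, B3gnt6 went from a log2 ratio of -7.70 ± 0.47 to -8.38 ± 0.75, a difference of -0.68 whose 95% interval of -1.42 to 0.12 includes 0 (exact permutation p = 0.0952, adjusted p = 0.107). Of the 12 tests that left out 1 library, 1 had an adjusted p under 0.05 by exact permutation. That test left out EPR cKO 5, the knockout with the highest ratio (-6.95), and gave a difference of -0.96 (adjusted p = 0.00557). Without EPR fl/fl 5 the difference was -0.50, with an adjusted p of 0.214 by exact permutation. C1galt1 rose relative to Muc2 by 1.70 (95% interval 1.11 to 2.31, exact permutation p = 0.00216, adjusted p = 0.00325). Relative to Tff3, a trefoil peptide of goblet cells, B3gnt6 fell by 2.24 on the log2 scale (95% interval -2.69 to -1.81, exact permutation p = 0.00216, adjusted p = 0.00325). Tff3 was itself lower in EPR cKO, from 357 ± 14.6 to 247 ± 43.4 CPM (log2 difference -0.53, adjusted p = 0.0170 by edgeR's quasi-likelihood test).

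Relative to the geometric mean of 12 epithelial genes, B3gnt6 fell by 3.06 (95% interval -3.66 to -2.46) and C1galt1 fell by 0.68 (95% interval -0.97 to -0.40) on the log2 scale, both with an exact permutation p of 0.00216, an adjusted p of 0.00325 and no overlap of the groups. The epithelial genes themselves were higher by sign in 12 of 12 cases with 0 at an adjusted p under 0.05 in edgeR and 6 at an unadjusted p under 0.05, where 18.3% of all tested genes stood. Smooth muscle genes were lower by sign in 10 of 10 cases, with 0 at an adjusted p under 0.05 and 0 at an unadjusted p under 0.05 in edgeR. Those fits held EPR cKO 1. Without EPR cKO 1 their summed level was 1083 to 2817 CPM in the knockouts, below every control (3223 to 5628 CPM). The balance of epithelial to smooth muscle genes, a difference of mean log2 CPM, was 0.87 to 1.64 in EPR fl/fl. It was 1.96 to 3.52 in EPR cKO 2 to 6 and -0.09 in EPR cKO 1. A fit with this balance as a covariate therefore leans on EPR cKO 1 to tell group from balance. In that fit 4 of the 10 enzymes fell in edgeR's quasi-likelihood test, as did 242 of 15952 tested genes. The log2 differences were -3.04 for B3gnt6 (adjusted p = 9.23e-05 by edgeR), -2.17 for A4gnt (adjusted p = 0.000787), -0.74 for C1galt1c1 (adjusted p = 0.000134) and -0.58 for C1galt1 (adjusted p = 0.00532). B3gnt7 did not pass in that fit, at -1.46 with an adjusted p of 0.0593 by edgeR. Fat genes were lower by sign in 5 of 5 cases, with 0 at an adjusted p under 0.05 and 5 at an unadjusted p under 0.05 in edgeR. Their summed levels overlapped, at 271 to 999 CPM in EPR fl/fl and 43.4 to 565 CPM in EPR cKO. Without EPR cKO 1 the knockouts held at most 181 CPM, below every control. The part of fat in these results was not tested.

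**Figure D4:**
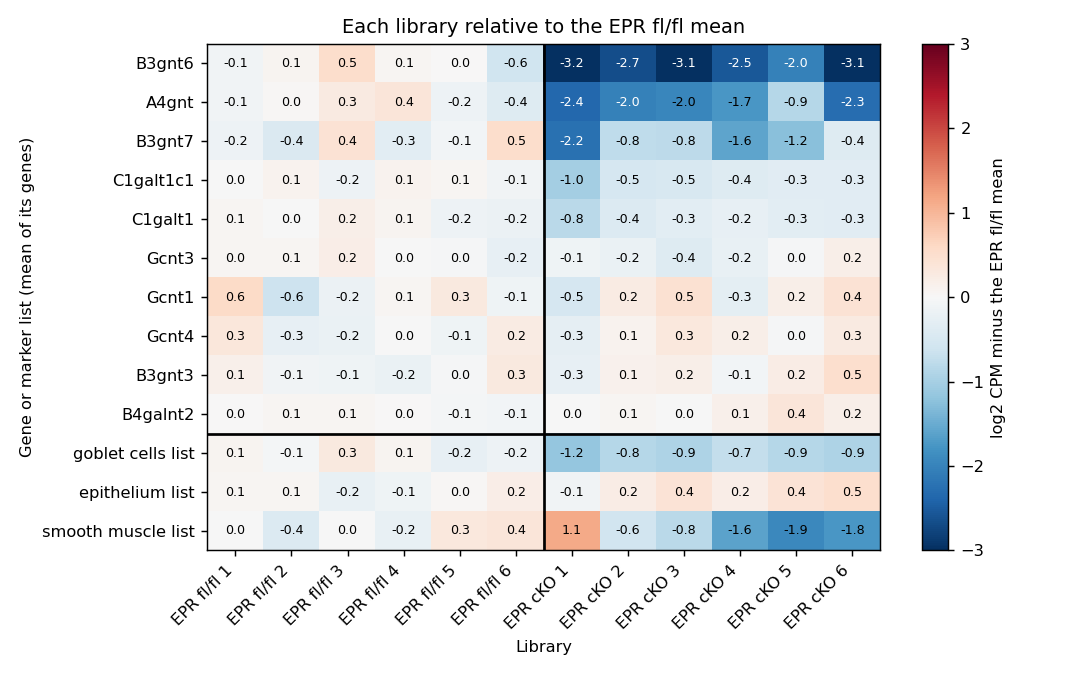
Log2 CPM of each enzyme, and the mean of 3 marker lists, in each library relative to the EPR fl/fl mean (color and number; EPR fl/fl left of the line, EPR cKO right). B3gnt6 and A4gnt are low in all 6 EPR cKO libraries, as is the goblet cell list, and EPR cKO 1 has the lowest C1galt1 and C1galt1c1 together with the highest smooth muscle list.

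The other genes of O-glycan synthesis fell more often than they rose. Of 53 further genes in 4 lists 48 were tested, of which 6 fell and 0 rose at an adjusted p under 0.05 in edgeR, beside 1.57% and 0.884% of all tested genes, and 14 of the 48 had an unadjusted p under 0.05, beside 18.3% of all tested genes. Their median log2 fold change was -0.14. Without EPR cKO 1 the counts were 15 lower and 1 higher, in a fit in which 14.4% of all tested genes fell and 7.44% rose. Among the GalNAc transferases that start the chain, 2 of 13 fell, with a median of -0.48 over the list. They were Galnt5, which went from 52.5 ± 7.58 to 24.2 ± 5.02 CPM (log2 difference -1.12, adjusted p = 0.00108), and Galnt7, from 251 ± 42.1 to 168 ± 13.4 CPM (-0.58, adjusted p = 0.0117). Of 15 further capping enzymes 4 fell, with a median of -0.43. St6gal1, a sialyltransferase, went from 66.4 ± 5.95 to 21.9 ± 2.41 CPM (log2 difference -1.60, adjusted p = 1.61e-06). The sulfotransferases Chst4 and Gal3st2 went from 32.3 ± 2.90 to 19.8 ± 3.84 CPM (-0.71, adjusted p = 0.00997) and from 31.5 ± 6.48 to 13.5 ± 4.68 CPM (-1.22, adjusted p = 0.0138). Abo, the blood group A and B transferase, went from 6.11 ± 1.96 to 2.13 ± 0.775 CPM (-1.52, adjusted p = 0.0157). Among the other lists, 0 of 10 other chain extension enzymes and 0 of 10 genes of sugar nucleotide supply passed the test in either direction. At the shares over all tested genes a list of 10 would mostly hold no call, so these counts do not set the lists apart. Their medians were 0.03 and 0.00, with 1 gene in each list at an unadjusted p under 0.05.

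The genes whose pattern over the 12 libraries was nearest to that of B3gnt6 were Ccl6, Scnn1b and Erich5, with a root mean square difference of 0.338, 0.341 and 0.364 in log2 CPM after centring on the control mean. Ccl6, a chemokine, went from 208 ± 49.6 to 35.6 ± 6.83 CPM, and Scnn1b, a subunit of the epithelial sodium channel, from 5.68 ± 1.68 to 0.855 ± 0.554 CPM. Nearest to C1galt1 were Edem3, Fut8 and Ergic1, at 0.0975, 0.102 and 0.109. Edem3 and Ergic1 act in protein quality control and transport between the endoplasmic reticulum and the Golgi, and Fut8 adds the core fucose of N-glycans. Their log2 differences were -0.39, -0.48 and -0.42. The distance included the shift between the groups, so that a log2 difference near that of C1galt1 follows from how these genes were chosen. The same holds for the genes nearest to B3gnt6.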

How the data were processed

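The authors made stranded total RNA libraries after ribosomal RNA depletion, trimmed the paired reads, aligned them with STAR 2.5.3a to mm10 (GRCm38) and assigned them to genes with featureCounts. The authors deposited these as unfiltered raw counts for each gene, next to exon coordinates and a summed exon length. Whether the counting used strand or reads with several alignments is not given in the sources used here. Stretches of 50 bases shared with another gene on the same strand made up 0% of 9 of the 10 enzymes and 0.133% of B3gnt3.

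Genes with a CPM of at least 1 in at least 4 libraries, as in the study, were tested (15952 of 36694 with any count) in R 4.3.3 with edgeR 4.0.16 (TMM scaling, quasi-likelihood F test, Benjamini-Hochberg adjustment over all tested genes, no covariate), a procedure first tested on simulated data. CPM and RPKM used TMM-scaled library sizes, and log2 CPM a prior count of 2. Ratios were log2 of counts plus 0.5 per exonic base, compared by two-sided exact permutation tests. Values are mean ± SD over 6 libraries. Groups came from the sample labels. Named genes were the 10 enzymes, EPR, pathway genes past an adjusted p of 0.05, Muc2, Tff3 and the 3 genes nearest in pattern to B3gnt6 and C1galt1. The enzymes, lists and tests were chosen with earlier results of these data known. Alternatives covered scaling, filters, DESeq2 1.42.0, limma-voom (limma 3.58.1), a replicate block, a tissue content covariate, pseudocounts and leaving out each library.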

Additional observations from a re-analysis of the deposited data

Results flagged for a closer look

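In 3 cases a single knockout library lay far from the other 5 of its group by Dixon's test, which chance does for about 1 in 20 groups, or about 1.9 of the 38 groups examined here. C1galt1 stood at 196 CPM in EPR cKO 1, where the other 5 knockout libraries held 261 to 293 CPM. C1galt1c1 stood at 29.4 CPM in the same library, against 42.3 to 47.7 CPM in the others. A4gnt stood at 25.4 CPM in EPR cKO 5, against 8.95 to 13.6 CPM in the others. EPR cKO 1 was also the library with the most smooth muscle RNA, and the part of that in its C1galt1 and C1galt1c1 levels was not tested.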

How the results depend on the processing

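B3gnt6 and A4gnt passed an adjusted p under 0.05 in all 8 alternative fits and all 12 fits that left out 1 library, with log2 differences of -3.04 to -2.63 and -2.17 to -1.71, and the core 3 to core 1 ratio did so in 14 of 14 settings (-2.51 to -2.30). The number of enzymes that fell was 3, and 5 by the DESeq2 Wald test and by limma-voom, 4 with the tissue content covariate, with DESeq2 size factors and with filterByExpr, 2 with total counts without TMM, where C1galt1c1 had an adjusted p of 0.0602 by edgeR, and 2 to 5 when 1 library was left out; further pathway genes that fell numbered 6 to 15 and those that rose 0 to 1 in the latter. C1galt1 passed in 5 of the 8 alternatives, C1galt1c1 in 6 and B3gnt7 in 3. Signs turned for Gcnt1 (-0.12 with the tissue content covariate, and -0.027 to 0.20 when 1 library was left out, the lowest without EPR fl/fl 2), Gcnt4 (-0.026 with the covariate) and B3gnt3 (-0.049 with the covariate). The covariate fit leans on EPR cKO 1, as described above. When 1 library was left out, the difference in log2 ratio ran from 0.065 to 0.17 for C1galt1 to C1galt1c1, from 0.22 to 0.35 for the branching enzymes to C1galt1 and from -0.96 to -0.50 for B3gnt6 to Muc2. Over all genes, calls of lower and higher numbered 251 and 141, against 473 and 440 by the DESeq2 Wald test. They numbered 327 and 176 by limma-voom, 255 and 134 with DESeq2 size factors, and 259 and 122 of 17502 tested genes with filterByExpr. Further counts were 247 and 39 with total counts, 243 and 54 without the filter, 242 and 86 with the covariate, and 2273 and 1178 without EPR cKO 1. Leaving out another library gave 145 to 255 and 31 to 131. The causes were not tested.

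Replicate numbers did not pair the libraries: libraries of the same number had correlations of deviations of -0.24 to 0.34, and the best match was the own number for 2 of 6. With the numbers as a replicate block 178 genes fell and 67 rose. The adjusted p was 0.0615 for C1galt1c1 and 0.0373 for B3gnt7 by edgeR's quasi-likelihood test. For the ratio of B3gnt6 to Muc2 (-0.68) it was 0.0352 by exact sign flips within numbers, the same as for the core 3 to core 1 ratio. That test has 64 assignments and a smallest unadjusted p of 0.03125. Since the numbers did not pair the libraries, no conclusion is drawn from it. B3gnt7, with 43 to 163 reads in the knockouts, had a coefficient of variation of 41.6% there, the highest after A4gnt at 45.8%.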
